A study of Homo sapiens with 24 samples.

Results

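The 10 genes described here are the chemokines IL8, CXCL1, CXCL2, CXCL3, CXCL16 and CCL20, the NF-kB inhibitors NFKBIA and TNFAIP3, the apoptosis inhibitor BIRC3 and the adhesion molecule ICAM1. The genes were chosen with earlier results of these data known. Their probes were taken by gene name alone, as every probe that is not a control and that the files name after 1 of the 10. This gave 13 probes of 34127, and 10 gene names of 27274.

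The arrays measured mRNA in HCT-116 cells, a human colorectal cancer cell line, under 4 treatments in 6 experiments, with 1 array per treatment and experiment and 24 arrays in all. All arrays came from 1 stably transfected clone. It carries a Tet repressor and a doxycycline-inducible, FLAG-tagged DN-Tcf4, a Tcf4 without the part that binds beta-catenin, which blocks the beta-catenin-Tcf complexes of Wnt signaling. The Ctl cells, labelled both untreated and mock-treated, received neither agent, the NaB cells received 5 mM sodium butyrate, the Doxy cells 4 μg/ml doxycycline, and the DoxyNaB cells both agents. By the study's methods doxycycline was given first, and the cotreatment with or without butyrate then lasted 17.5 hr. The methods do not state how long doxycycline was given before it. Every group is thus a group of transfected cells of a single clone, and other clones and the parental line were not analysed here.

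NF-kB is a family of transcription factors that inhibitors of the IkB family hold inactive. Signals from receptors such as those for TNF and IL-1 activate the IkB kinases, the inhibitor is degraded, and NF-kB enters the nucleus, where it switches on chemokines that draw neutrophils, adhesion molecules, and its own inhibitors. Colonic epithelial cells make several of these chemokines, and butyrate, a product of fiber fermentation that inhibits histone deacetylases, is known to alter this response in them.

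Sequences are given first for CXCL1, CXCL2 and CXCL3, which lie near each other on chromosome 4 and resemble each other. CXCL1 and CXCL2 have 2 probes each, and the probe nearer the 5′ end of the gene lies at chr4:74954510-74954569 (plus strand) for CXCL1 and at chr4:75183206-75183265 (minus strand) for CXCL2, in the NCBI36 build. The best ungapped alignment of these probes covered 37 bases, of which 32 (86.5%) were identical. No other pair among the 5 probes of CXCL1, CXCL2 and CXCL3 shared more than 54.8%. Binding of one transcript to the other gene's probe was not tested. Both probes are shown as deposited, in lower case with no part marked:
CXCL1 5′ probe: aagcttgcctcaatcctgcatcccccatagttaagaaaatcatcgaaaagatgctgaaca
CXCL2 5′ probe: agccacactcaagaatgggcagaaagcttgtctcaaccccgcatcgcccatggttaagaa

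The 250 bases before the start site, from RefSeq on GRCh38.p14, were read for 9 of the 10 genes, with IL8 under its current symbol CXCL8. They were searched for the NF-kB motif GGRRNNYYCC (R for A or G, Y for C or T, N for any base), a consensus of 10 bases. This motif reads the same on both strands. It was found in 8 of the 9, and in 12.3% of the 35116 windows of the same length. In CXCL1, CXCL2 and CXCL3 it began 79, 78 and 79 bases before the start site, in each case with a second match that starts 1 base later. These matches lie within the longest run that the 3 windows share, of 23 bases. The windows of CXCL1 and CXCL3 were 81.4% identical, and those of CXCL1 and CXCL2 68.0%.

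The window of NFKBIA held the motif 81 bases before its start, and that of BIRC3 held it 199 and 135 bases before. It stood 67 and 55 bases before the start of TNFAIP3, 79 before that of CCL20 and 17 before that of IL8. The window of ICAM1 held no match. Every letter had to match, so near matches were not counted. The windows of IL8 and ICAM1 hold ggaatttcct and ggaaattccg, which miss the consensus in the last base alone. The Tcf motif ATCAAAG, searched on both strands, was found in 1 of the 9 windows, that of IL8, and in 2.26% of all windows. The AP-1 motif TGANTCA, searched likewise, was found in that of IL8 too, and in 6.57% of all windows. The windows of the genes that the comparisons below turn on follow, with the NF-kB motif in capitals:
CXCL1, chr4:73869143-73869392, plus strand: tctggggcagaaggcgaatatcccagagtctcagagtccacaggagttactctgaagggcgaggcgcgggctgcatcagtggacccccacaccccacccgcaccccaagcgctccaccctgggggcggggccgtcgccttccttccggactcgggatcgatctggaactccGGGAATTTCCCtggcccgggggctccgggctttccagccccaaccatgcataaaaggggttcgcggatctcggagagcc
CXCL2, chr4:74099196-74099445, minus strand: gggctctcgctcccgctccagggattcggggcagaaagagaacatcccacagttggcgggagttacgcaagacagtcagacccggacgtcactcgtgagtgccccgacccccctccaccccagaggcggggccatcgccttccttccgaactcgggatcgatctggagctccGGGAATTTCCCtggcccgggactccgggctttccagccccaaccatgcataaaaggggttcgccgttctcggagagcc
CXCL3, chr4:74038690-74038939, minus strand: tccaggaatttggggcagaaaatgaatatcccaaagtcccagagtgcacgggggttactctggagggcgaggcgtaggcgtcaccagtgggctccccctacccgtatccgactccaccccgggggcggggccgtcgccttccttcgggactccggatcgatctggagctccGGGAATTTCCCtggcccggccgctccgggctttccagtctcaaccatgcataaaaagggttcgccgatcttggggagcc
NFKBIA, chr14:35404750-35404999, minus strand: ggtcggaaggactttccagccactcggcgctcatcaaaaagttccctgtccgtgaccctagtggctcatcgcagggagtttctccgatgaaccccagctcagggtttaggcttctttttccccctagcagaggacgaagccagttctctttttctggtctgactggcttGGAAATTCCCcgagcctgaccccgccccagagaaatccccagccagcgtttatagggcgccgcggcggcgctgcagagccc
BIRC3, chr11:102317234-102317483, plus strand: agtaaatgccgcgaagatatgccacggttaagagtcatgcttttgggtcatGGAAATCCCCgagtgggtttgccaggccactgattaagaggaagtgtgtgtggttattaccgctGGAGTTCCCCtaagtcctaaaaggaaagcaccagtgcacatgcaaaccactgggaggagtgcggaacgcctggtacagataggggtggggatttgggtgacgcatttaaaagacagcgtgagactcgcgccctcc

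Each probe's level is its log2 processed signal minus the log2 75th percentile over the array's spots. Levels can be compared between arrays, but not between probes. Well above background is the flag that the scanner software set for each spot. Testing required a probe to exceed background clearly in 1 or more treatments on each of the 6 arrays, flagged spots aside, and 18984 probes of 15155 gene names did. Of the 10 genes, 7 with 10 probes were tested. IL8, CCL20 and TNFAIP3 did not pass the filter and are given as levels only. By the probe that represents each gene, 5 genes were well above background on all 24 arrays, CXCL1 was on 5 of the 6 Ctl arrays and CXCL3 on 4. Since the RNA is from whole cultures, fewer cells with a transcript and less transcript per cell cannot be told apart.

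Between 52.7% and 88.1% of the spots were well above background on an array. Negative controls had a mean net signal over 100 on 5 of the 24 arrays, all 5 of them butyrate arrays. The butyrate arrays of experiment 1 were on another slide and scan than its Ctl and Doxy arrays, so within that experiment the slide cannot be told apart from butyrate. Without it, 6 of the 7 genes tested were called in NaB/Ctl, beside 5846 of all 18984 probes tested. Of the same genes, 3 were then called in DoxyNaB/Doxy and 0 passed the interaction, for which the counts over all probes are not given. In DoxyNaB/NaB, 2 probes of TCF7L2, the gene of Tcf4, rose by 4.46 (SE 0.42) and 2.96 (SE 0.36) on the log2 scale, and another probe of it fell by 1.25 (SE 0.25). AXIN2, a Wnt target, was lower in the same comparison (log2 change -2.53, SE 0.09, limma adjusted p = 2.64e-11). In Doxy/Ctl the first 2 TCF7L2 probes did not pass the test (0.30 and -0.17, adjusted p = 0.861 and 0.921), and AXIN2 was lower under 2-fold (-0.58, adjusted p = 0.0029). Of the 8 epithelial markers, CDH1, KRT8, KRT18, KRT19 and CDX2 were well above background on all 24 arrays and EPCAM on 22, but LGALS4 on 12 and VIL1 on 5, with VIL1 on 0 of the Ctl arrays. The mean level of EPCAM was between 2.45 and 4.14 in the 4 groups. An array where a probe's spots were all flagged as outliers is not counted as well above background. Of the 12 leukocyte, endothelial and fibroblast markers reported, 0 were so on all 24, although CD14, CSF1R and COL1A1 were on 23.

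In NaB/Ctl, the comparison that asks what butyrate does when DN-Tcf4 is not induced, CXCL1, CXCL3 and BIRC3 rose, CXCL16 and NFKBIA fell, and CXCL2 and ICAM1 were not called. Called means a fold over 2 and a limma adjusted p under 0.01. These are 5 of the 7 genes tested, and 32.4% of all 15155 gene names tested were called, 21% as higher and 11.5% as lower. In DoxyNaB/Doxy, the butyrate comparison in cells given doxycycline, 3 of 7 were called, CXCL1 as higher and CXCL16 and NFKBIA as lower. Of all genes, 31.2% were called, 18.7% as higher and 12.5% as lower. The study found minimal DN-Tcf4 protein with doxycycline alone and high levels with both agents. DoxyNaB and Doxy thus differ in DN-Tcf4 as well as in butyrate. The median change of the 7 genes was 0.99 on the log2 scale in NaB/Ctl and 0.60 in DoxyNaB/Doxy, beside 0.17 and 0.11 over all genes tested.

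Few changes were called between cells that differed in doxycycline alone. Doxy/Ctl called 0 of 7 genes, against 0.0924% of all genes, and 1 of 7, BIRC3, had an unadjusted limma p under 0.05. DoxyNaB/NaB called 0 of 7, against 0.403% of all genes, and 3 of 7 had an unadjusted p under 0.05. The interaction, which takes the DoxyNaB/Doxy change from the NaB/Ctl change, passed at an adjusted p under 0.01 for 2 of 7, NFKBIA and BIRC3, against 1.36% of all genes. The comparisons share arrays (DoxyNaB, for example, is in 3 of these), so their values are not independent.

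**Figure D1:**
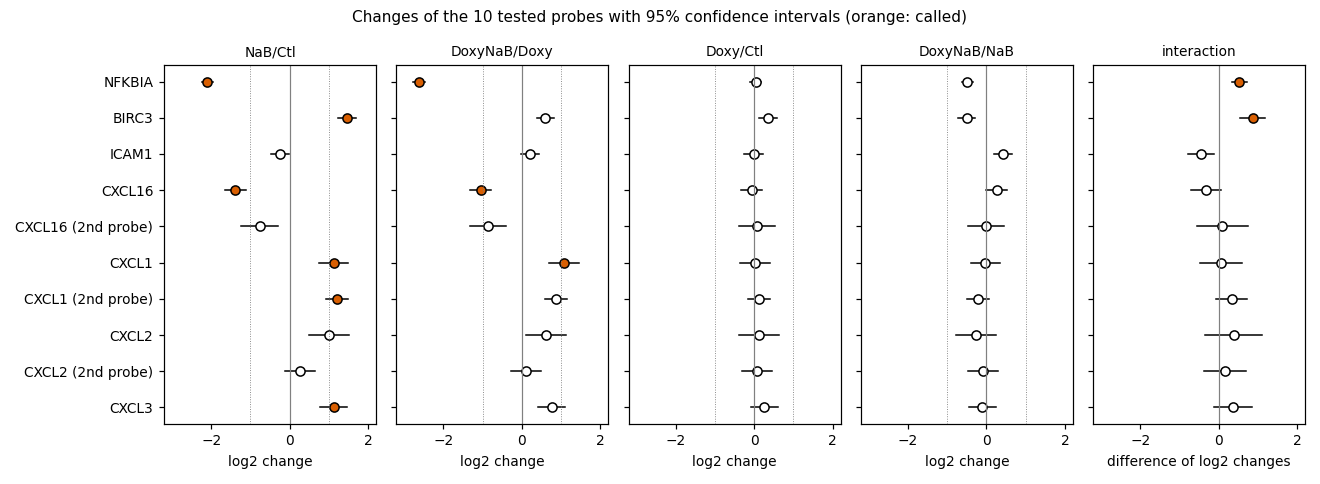
Log2 change with its 95% confidence interval (x axis) of the 10 tested probes (y axis) in the 4 comparisons and in the interaction, over 6 experiments. Orange points were called, and dotted lines mark a fold of 2. NFKBIA and BIRC3 alone pass in the interaction, and the intervals of Doxy/Ctl span 0 for every probe but that of BIRC3.

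Which of the rises were called changed with the scaling of the arrays. The 75th percentile put 65.3% of the 6017 probes called in NaB/Ctl on the higher side, normexp background correction 53.2%, quantile normalization 43.8% and scaling to the median 21.1%. The median change of all tested probes in NaB/Ctl was 0.17, 0.07, -0.09 and -0.58 under these. NFKBIA and CXCL16 were called as lower in NaB/Ctl under each of the 4. CXCL1, CXCL3 and BIRC3 were called as higher under the first and under none of the other 3. Normexp was run with an offset of 50 signal units added to each spot, which draws the changes of dim probes toward no change. The part of the offset in the normexp values given here and below was not tested. Relative to the median of all tested probes, BIRC3 was at 1.29 with the 75th percentile and with median scaling, and CXCL1 and CXCL3 were at 0.95 with both. These 2 scalings differ by 1 constant per array, apart from a floor of 5, so such values match by construction. With normexp and quantile normalization BIRC3 was at 0.56 and 0.69, CXCL1 at 0.24 and 0.12, and CXCL3 at 0.145 and -0.06.

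**Figure D2:**
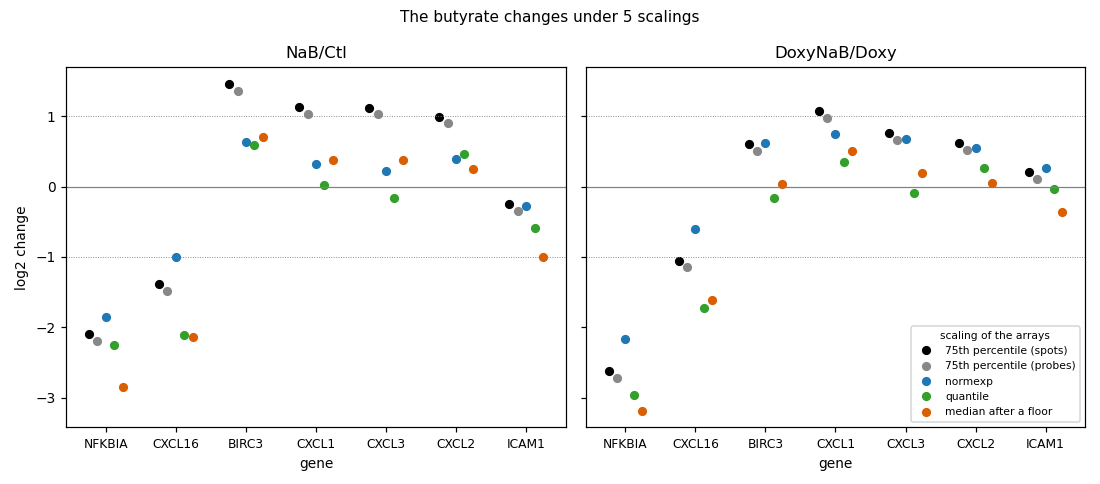
Log2 change of the 7 tested genes in NaB/Ctl (left) and DoxyNaB/Doxy (right) under 5 scalings of the 24 arrays, 1 point per gene and scaling, with dotted lines at a fold of 2. NFKBIA lies below the lower line in every case, between -3.18 and -1.85, while BIRC3, CXCL1, CXCL2 and CXCL3 have their highest NaB/Ctl values with the 75th percentile over spots.

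NFKBIA encodes IkB-alpha, the inhibitor that holds NF-kB in the cytoplasm and is itself induced by NF-kB. Its probe, at chr14:34940539-34940598 (minus strand, NCBI36), is printed in 10 spots. Its level was between 1.11 and 1.38 on the Ctl arrays (median 1.22) and between -1.05 and -0.73 on the NaB arrays (median -0.80). On the Doxy arrays it was between 1.16 and 1.36 (median 1.31), and on the DoxyNaB arrays between -1.43 and -1.25 (median -1.35). Every array without butyrate lay above every array with it, and the DoxyNaB arrays lay below all NaB arrays. NFKBIA was 4.28-fold lower in NaB than in Ctl (log2 change -2.10, SE 0.07, adjusted p = 1.51e-14), in 6 of 6 experiments. It was 6.16-fold lower in DoxyNaB than in Doxy (log2 change -2.62, SE 0.07, adjusted p = 1.16e-15), again in 6 of 6.

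The fall of NFKBIA was larger with doxycycline, by 0.53 on the log2 scale (95% interval 0.33 to 0.73, adjusted p = 0.00378), in 6 of 6 experiments. DoxyNaB was also lower than NaB, under 2-fold (log2 change -0.49, SE 0.07, adjusted p = 0.000153). Doxy and Ctl did not differ beyond their spread (0.04, 95% interval -0.10 to 0.18, adjusted p = 0.893), so the order of levels with the 75th percentile was Doxy and Ctl, then NaB, then DoxyNaB. The DoxyNaB/NaB step was -0.21 with normexp, -0.67 with quantile normalization and -0.38 with median scaling, and did not pass in any of these (adjusted p = 0.515, 0.157 and 1). The interaction passed in 1 of the 6 fits that left out an experiment, the fit without experiment 3 (0.47 to 0.58, adjusted p from 0.00923 to 0.0369). It was 0.32 with normexp, 0.72 with quantile normalization and 0.34 with median scaling, at adjusted p of 0.609, 0.498 and 0.983.

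The 5 tested genes whose levels over the 24 arrays were most like those of NFKBIA were TGIF1 (Pearson r = 0.995), IRX4 (r = 0.994), SSFA2 (r = 0.992), WDR12 (r = 0.992) and GPX8 (r = 0.992). The arrays fall into those with and without butyrate, which these values share.

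TNFAIP3 encodes A20, a ubiquitin-editing enzyme that shuts off NF-kB signaling. Its probe was well above background on 3 Ctl, 4 NaB, 5 Doxy and 4 DoxyNaB arrays. Its level ran from -5.00 to -4.44 on the Ctl arrays (median -4.75) and from -4.56 to -3.33 on the NaB arrays (median -3.97). It ran from -5.25 to -4.16 on the Doxy arrays (median -4.38) and from -5.30 to -3.42 on the DoxyNaB arrays (median -3.71). Each group overlapped with every other. The NaB/Ctl difference was between -0.12 and 0.73 in experiments 2 to 4 and between 1.23 and 1.67 in experiments 5 and 6.

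BIRC3 encodes cIAP2, a ubiquitin ligase that blocks cell death at TNF receptors. Its level was between -3.62 and -3.18 on the Ctl arrays (median -3.36) and between -2.09 and -1.75 on the NaB arrays (median -1.90). It was between -3.22 and -2.63 on the Doxy arrays (median -3.05) and between -2.88 and -2.14 on the DoxyNaB arrays (median -2.37). NaB lay apart from the 3 other groups, whereas DoxyNaB overlapped with Doxy. BIRC3 was 2.75-fold higher in NaB than in Ctl (log2 change 1.46, SE 0.10, adjusted p = 4.71e-10). It was 1.51-fold higher in DoxyNaB than in Doxy (log2 change 0.60, SE 0.10, adjusted p = 4.52e-05), under the 2-fold threshold.

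The rise of BIRC3 was larger without doxycycline, by 0.86 on the log2 scale (95% interval 0.55 to 1.17, adjusted p = 0.0022), in 6 of 6 experiments. DoxyNaB was lower than NaB (log2 change -0.51, SE 0.10, adjusted p = 0.00611). Doxy was above Ctl in 6 of 6 experiments without passing the test (0.35, SE 0.10, adjusted p = 0.12). By the means the order was NaB, DoxyNaB, Doxy and Ctl, but the DoxyNaB/NaB step did not pass in any of the 6 fits that left out an experiment (-0.55 to -0.42, adjusted p from 0.0123 to 0.0446). Nor did it pass under normexp, quantile normalization or median scaling, at 0.001, -0.57 and -0.40 (adjusted p = 0.998, 0.329 and 1). The interaction passed in 2 of the 6 fits that left out an experiment, those without experiment 2 and without experiment 4 (0.75 to 0.96, adjusted p from 0.00479 to 0.0173).

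Within scans, the NaB/Ctl change of BIRC3 was 1.39 in experiments 2 to 4 and 1.52 in experiments 5 and 6. It was 0.63 with normexp, 0.59 with quantile normalization and 0.71 with median scaling (adjusted p = 0.0103, 0.0616 and 0.0021), under 2-fold in each. Its interaction was 0.01, 0.76 and 0.67 under the same 3, at adjusted p of 0.987, 0.54 and 0.983.

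**Figure D3:**
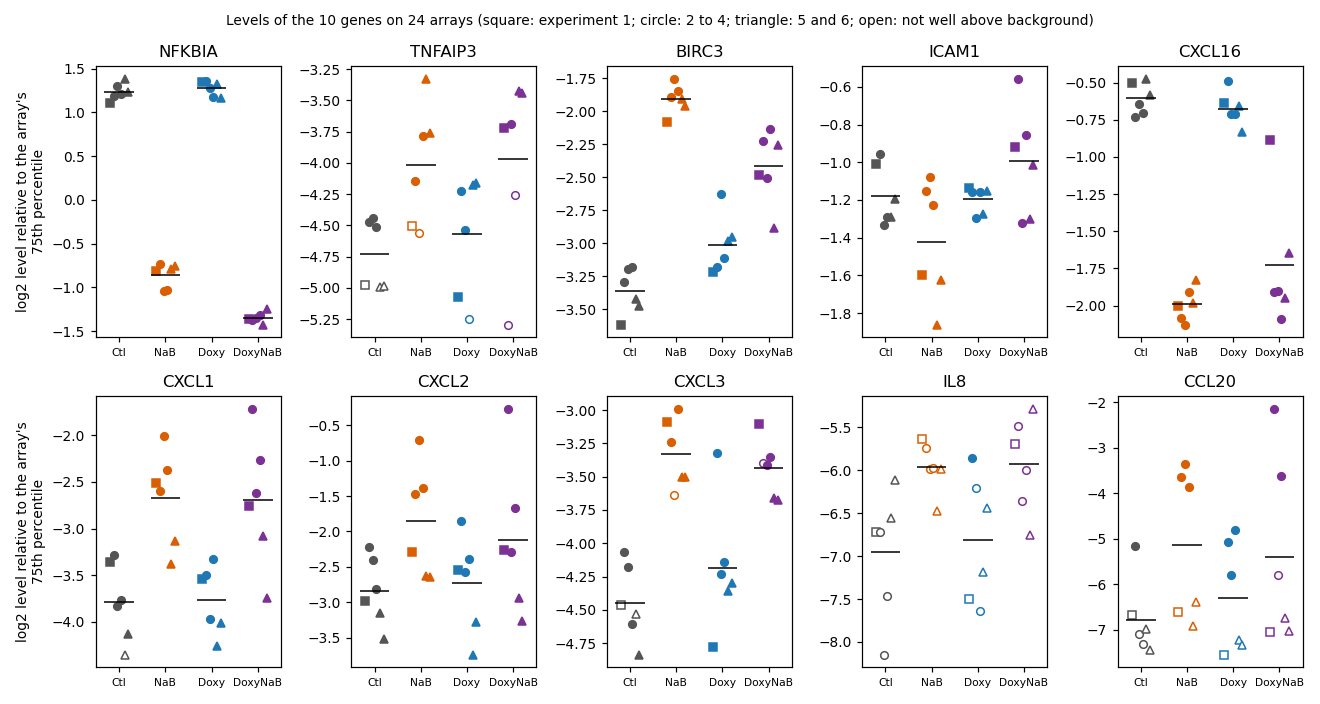
Log2 level of each of the 10 genes, by the probe that represents it, on the 24 arrays (y axis, relative to the array's 75th percentile) by treatment (x axis), with 1 point per array, the mean as a line, shapes for the experiments, and open points where the probe was not well above background. NFKBIA and CXCL16 are lower with butyrate, BIRC3 is highest in NaB, and IL8 is well above background on 1 of 24 arrays.

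ICAM1 encodes an adhesion molecule that leukocyte integrins bind. Its probe, printed in 10 spots, was well above background on all 24 arrays. Its level ran from -1.33 to -0.96 on the Ctl arrays (median -1.24) and from -1.86 to -1.08 on the NaB arrays (median -1.41). It ran from -1.30 to -1.14 on the Doxy arrays (median -1.16) and from -1.32 to -0.56 on the DoxyNaB arrays (median -0.97). Each group overlapped with every other. The change was -0.25 in NaB/Ctl (95% interval -0.48 to -0.01, adjusted p = 0.0527) and 0.20 in DoxyNaB/Doxy (95% interval -0.03 to 0.43, adjusted p = 0.109).

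DoxyNaB was above NaB for ICAM1 by 0.43 in 5 of 6 experiments (SE 0.11, adjusted p = 0.0313), without passing at 0.01. In the order of means DoxyNaB, Ctl, Doxy and NaB, no neighbours differed by the test, with adjusted p of 0.14, 0.976 and 0.0706. The NaB/Ctl difference was between -0.20 and 0.25 in experiments 2 to 4 and between -0.57 and -0.43 in experiments 5 and 6. With quantile normalization the NaB/Ctl change was -0.59 (adjusted p = 1.53e-08), and the interaction passed (-0.56, adjusted p = 0.000223). With median scaling the NaB/Ctl change was -0.995 (adjusted p = 3.77e-06). Without experiment 3, NaB/Ctl was -0.35 (adjusted p = 0.00527) and DoxyNaB/NaB 0.56 (adjusted p = 0.0034), both under 2-fold.

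CXCL16 is a chemokine made as a membrane protein and then shed, and it draws T cells that carry CXCR6. Its probe at chr17:4584309-4584368 (minus strand, NCBI36) was between -0.73 and -0.47 on the Ctl arrays (median -0.61) and between -2.13 and -1.83 on the NaB arrays (median -1.99). It was between -0.83 and -0.49 on the Doxy arrays (median -0.69) and between -2.09 and -0.89 on the DoxyNaB arrays (median -1.90). Every butyrate array lay below every array without it, and the DoxyNaB array of experiment 1 came nearest to them. CXCL16 was 2.61-fold lower in NaB than in Ctl (log2 change -1.38, SE 0.13, adjusted p = 2.09e-08) and 2.08-fold lower in DoxyNaB than in Doxy (log2 change -1.05, SE 0.13, adjusted p = 7.8e-07), in 6 of 6 experiments each. The second value was -0.98 without experiment 2, -0.99 without experiment 4 and -0.60 with normexp, which ended the call.

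A second CXCL16 probe, at chr17:4584556-4584615 on the same strand, gave -0.77 in NaB/Ctl (SE 0.22, adjusted p = 0.00405) and -0.86 in DoxyNaB/Doxy (SE 0.22, adjusted p = 0.00169), both under 2-fold and lower in 5 of 6 experiments. Its NaB/Ctl difference was between -0.68 and 0.06 in experiments 2 to 4, between -1.26 and -0.96 in experiments 5 and 6, and -1.52 in experiment 1, where slide and butyrate cannot be told apart. Without experiment 1 its changes were -0.62 (adjusted p = 0.0252) and -0.75 (adjusted p = 0.00923). The first probe gave between -1.49 and -1.21 in experiments 2 to 4 and between -1.51 and -1.25 in experiments 5 and 6, so the probes disagree in experiments 2 to 4. By the first probe Ctl and Doxy did not differ beyond their spread (adjusted p = 0.909), nor did DoxyNaB and NaB (0.26, adjusted p = 0.358).

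CXCL1, CXCL2 and CXCL3 are neutrophil chemokines, also known as GRO proteins, that act through CXCR2. CXCL1, by its 5′ probe, was between -4.36 and -3.29 on the Ctl arrays (median -3.80) and between -3.38 and -2.00 on the NaB arrays (median -2.56). It was between -4.26 and -3.32 on the Doxy arrays (median -3.76) and between -3.74 and -1.71 on the DoxyNaB arrays (median -2.69). The groups with and without butyrate overlapped. CXCL1 was 2.18-fold higher in NaB than in Ctl (log2 change 1.12, SE 0.18, adjusted p = 1.59e-05) and 2.1-fold higher in DoxyNaB than in Doxy (log2 change 1.07, SE 0.18, adjusted p = 2.77e-05), in 6 of 6 experiments each. The other CXCL1 probe, at chr4:74955714-74955773 (plus strand), gave 1.20 (SE 0.13) and 0.86 (SE 0.13) with no overlap in either comparison, and the second of these is under 2-fold.

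Neither Doxy and Ctl nor DoxyNaB and NaB differed beyond their spread for CXCL1 (0.02 and -0.03, adjusted p = 0.979 and 0.969). Without experiment 3 its NaB/Ctl change was 0.98, and without experiment 2 its DoxyNaB/Doxy change was 0.93, both just under 2-fold. In experiments 5 and 6 alone the changes were 0.99 and 0.73 (adjusted p = 0.0132 and 0.0395). NaB/Ctl was 0.31, 0.03 and 0.37 with normexp, quantile normalization and median scaling (adjusted p = 0.328, 0.89 and 0.0513). Relative to the median of all tested probes these are 0.24, 0.12 and 0.95, beside 0.95 with the 75th percentile. The values with median scaling and with the 75th percentile match by construction.

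CXCL3 was between -4.84 and -4.07 on the Ctl arrays (median -4.50) and between -3.64 and -2.99 on the NaB arrays (median -3.37). It was between -4.78 and -3.33 on the Doxy arrays (median -4.27) and between -3.67 and -3.11 on the DoxyNaB arrays (median -3.40). NaB and Ctl did not overlap, and the Doxy array of experiment 2 reached the levels of the DoxyNaB arrays. CXCL3 was 2.17-fold higher in NaB than in Ctl (log2 change 1.12, SE 0.16, adjusted p = 5.48e-06), in 6 of 6 experiments. It was 0.76 higher in DoxyNaB than in Doxy (SE 0.16, adjusted p = 0.000383), under 2-fold and in 5 of 6.

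The NaB/Ctl change of CXCL3 was 0.22 with normexp, 0.37 with median scaling and -0.16 with quantile normalization, which turned its sign, and none of these passed (adjusted p = 0.492, 0.225 and 0.729). In experiments 2 to 4 alone it was 0.99, under 2-fold. In the order NaB, DoxyNaB, Doxy and Ctl, DoxyNaB and Doxy were the neighbours that differed by the test.

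CXCL2, by its 5′ probe, was between -3.52 and -2.22 on the Ctl arrays (median -2.90) and between -2.65 and -0.71 on the NaB arrays (median -1.88). It was between -3.74 and -1.86 on the Doxy arrays (median -2.55) and between -3.27 and -0.27 on the DoxyNaB arrays (median -2.27). Each group overlapped with every other. Its change was 0.99 in NaB/Ctl (SE 0.24, adjusted p = 0.00118), just under 2-fold, and 0.61 in DoxyNaB/Doxy (SE 0.24, adjusted p = 0.0286), in 6 of 6 experiments each. It was over 2-fold and called in NaB/Ctl in 4 of the 6 fits that left out an experiment (0.85 to 1.09). The other CXCL2 probe, at chr4:75181849-75181908 (minus strand), gave 0.27 (95% interval -0.11 to 0.65, adjusted p = 0.186) and 0.11 (95% interval -0.27 to 0.49, adjusted p = 0.581). In the order NaB, DoxyNaB, Doxy and Ctl, no neighbours passed at 0.01.

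Several of these probes stood out on the butyrate arrays with high negative controls. In experiments 2, 3 and 4 the negative controls were at 114.6, 161 and 112.1 on the NaB arrays and at 248.9, 69.1 and 110.9 on the DoxyNaB arrays. CXCL2 was at -1.47, -0.71 and -1.38 on those NaB arrays and at -0.27, -2.29 and -1.67 on those DoxyNaB arrays, so that in each group it was highest on the array with the highest negative controls. The same held for CXCL1, at -2.00 in NaB of experiment 3 and -1.71 in DoxyNaB of experiment 2, for the second CXCL16 probe, at -0.99 and -0.69, and for ICAM1, at -1.08 and -0.56. Without these 2 arrays the CXCL1 changes were 0.99 in NaB/Ctl and 0.94 in DoxyNaB/Doxy, both under 2-fold.

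Other genes differed from this. TNFAIP3 was lowest of its group on the same 2 arrays, at -4.56 and -5.30, and CXCL3 was lowest in NaB of experiment 3, at -3.64, though neither probe was well above background on those arrays. NFKBIA was at -1.38 on the DoxyNaB array of experiment 2 and -1.35 on that of experiment 3. In experiments 5 and 6, where the negative controls were between 48.4 and 53.8 on all 8 arrays, the CXCL2 difference in NaB/Ctl was between 0.53 and 0.87. The part of the negative-control signal in these levels was not tested.

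CCL20, a chemokine for cells that carry CCR6, was well above background on 1 Ctl, 3 NaB, 3 Doxy and 2 DoxyNaB arrays, all of them of experiments 2 to 4. Its level was between -7.45 and -5.16 on the Ctl arrays (median -7.04) and between -6.92 and -3.36 on the NaB arrays (median -5.13). It was between -7.56 and -4.81 on the Doxy arrays (median -6.51) and between -7.04 and -2.14 on the DoxyNaB arrays (median -6.26). Each group overlapped with every other, and the highest level was on the DoxyNaB array of experiment 2, which had the highest negative controls. The NaB/Ctl difference was between 1.52 and 3.74 in experiments 2 to 4, between 0.065 and 1.05 in experiments 5 and 6, and 0.07 in experiment 1.

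**Figure D4:**
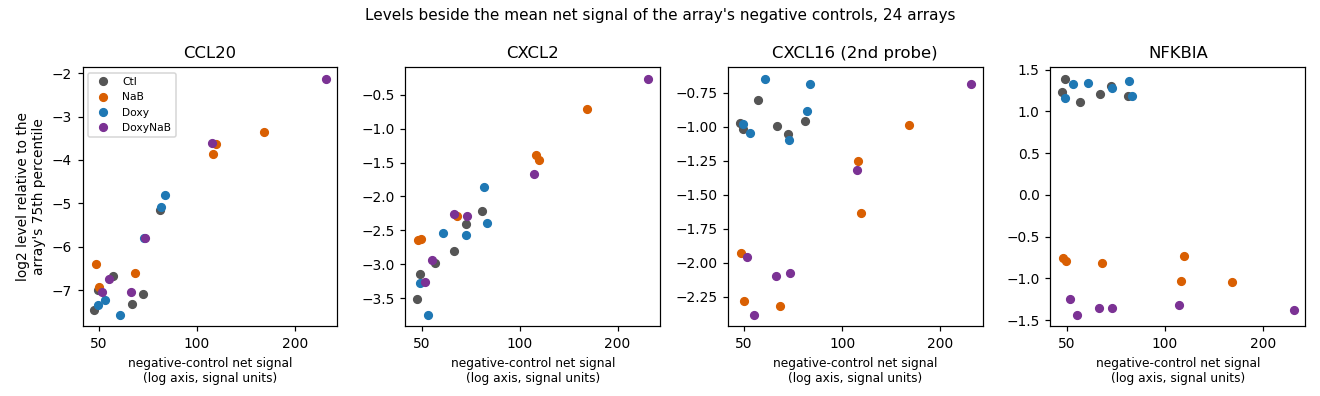
Log2 level (y axis, relative to the array's 75th percentile) of CCL20, CXCL2, the second CXCL16 probe and NFKBIA against the mean net signal of the array's negative controls (x axis, log scale, signal units), 1 point per array and 24 per panel. CCL20 and CXCL2 are highest on the array at 248.9, where CCL20 is at -2.14, while NFKBIA splits by butyrate at low and high values alike.

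IL8, now named CXCL8, is the best known neutrophil chemokine of epithelial cells and acts through CXCR1 and CXCR2. Its probe was well above background on 0 Ctl, 0 NaB, 1 Doxy and 0 DoxyNaB arrays, so no fold is given. Its level ran from -8.15 to -6.11 on the Ctl arrays and from -6.48 to -5.63 on the NaB arrays. It ran from -7.64 to -5.86 on the Doxy arrays and from -6.75 to -5.28 on the DoxyNaB arrays. Each group overlapped with every other. The genes most like it over the 24 arrays were C1orf116 (Pearson r = 0.796), ITGA9 (r = 0.749), NXF2 (r = 0.742), ENST00000323800 (r = 0.735) and LOC729314 (r = 0.734), and since 23 of the 24 IL8 values are not well above background, this likeness is to levels near background.

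The other genes of the pathway were taken from 5 lists, of other chemokines, receptors with their integrins and shedding proteases, NF-kB subunits with their inhibitors and kinases, upstream receptors and adaptors, and other NF-kB targets. Of 131 listed genes, 79 were tested. In NaB/Ctl 15 were called as higher and 15 as lower, 38% of the 79 against the 32.4% of all genes, with a median change of 0.29. In DoxyNaB/Doxy 16 were called as higher and 15 as lower, 39.2% against 31.2%, with a median change of 0.16. Doxy/Ctl called 0 of 79, beside 0.0924% of all genes. With normexp the counts were 17 in NaB/Ctl and 16 in DoxyNaB/Doxy. Over all 18984 probes, the NaB/Ctl calls went from 6017 to 3001 with normexp.

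Of the 13 NF-kB core genes, all tested, 1 rose and 3 fell in each butyrate comparison, 30.8% of the 13 beside 32.4% and 31.2% of all genes. NFKB1, whose product is cut to p50, fell by 3.11 in NaB/Ctl (SE 0.12, adjusted p = 1.14e-13) and by 3.19 in DoxyNaB/Doxy (SE 0.12, adjusted p = 7.25e-14). NFKBIZ, an atypical IkB protein of the nucleus, rose by 2.09 and 2.24 (SE 0.12). The related NFKBID was at -1.46 and -1.56 (SE 0.16) and BCL3 at -1.31 and -1.64 (SE 0.34). With normexp NFKBID was under 2-fold in both, at -0.94 and -0.24, and BCL3 in DoxyNaB/Doxy, at -0.998. NFKBID was well above background on 6 Ctl, 4 NaB, 6 Doxy and 3 DoxyNaB arrays, so the filter and its direction of change are not independent. BCL3 lost its NaB/Ctl call without experiment 1 (-1.12), 5 (-1.13) or 6 (-1.21).

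The other NF-kB subunits passed at an adjusted p under 0.01 in both butyrate comparisons, each under 2-fold. NFKB2 was at 0.75 and 0.95, and RELB at -0.50 and -0.77. RELA was at 0.29 and 0.47 and REL at 0.29 and 0.50, but both turned sign with median scaling, and REL in NaB/Ctl also with quantile normalization. Median scaling moved the median of all tested probes too, and relative to that median RELA was at 0.12 and 0.36 and REL at 0.12 and 0.40 under both scalings. IKBKB, an IkB kinase, passed the interaction at 0.65 (SE 0.11, adjusted p = 0.00148), with 0.02 in NaB/Ctl and -0.63 in DoxyNaB/Doxy.

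Of 33 upstream genes tested, 4 rose and 7 fell in NaB/Ctl, and 5 rose and 7 fell in DoxyNaB/Doxy. These are 33.3% and 36.4% of the 33, beside 32.4% and 31.2% of all genes. Some of the 33 passed the filter only through groups where they were high. TLR3 was well above background on 6 Ctl, 0 NaB, 6 Doxy and 0 DoxyNaB arrays, NOD1 on 6, 4, 6 and 5, and CYLD on 3, 6, 5 and 5. For such genes the filter and the direction of change are not independent. LTBR, the lymphotoxin beta receptor, fell by 3.36 and 3.65 (SE 0.31). IL1RAP, the shared chain of the IL-1 receptor, rose by 3.24 and 3.14 (SE 0.08). MYD88, the adaptor of Toll-like and IL-1 receptors, fell by 2.21 and 2.17 (SE 0.13). TNFRSF1A, the main TNF receptor, fell by 2.16 and 2.53 (SE 0.20), the second of which was -0.78 with normexp, and it was well above background on 5 NaB and 3 DoxyNaB arrays.

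Of 24 other NF-kB targets tested, 7 rose and 5 fell in each butyrate comparison, 50% of the 24 beside 32.4% and 31.2% of all genes. Among the 24, CSF3, TNC and PTGS2 passed the filter through butyrate groups alone, and CFLAR through Ctl and Doxy alone. TNC was well above background on 2 Ctl, 6 NaB, 3 Doxy and 6 DoxyNaB arrays, and PTGS2 on 2, 5, 3 and 6. For such genes the filter and the direction of change are not independent. IL15, a cytokine for lymphocytes, rose by 3.55 and 3.87 (SE 0.12). CSF3, which encodes G-CSF, was well above background on 2 Ctl, 6 NaB, 4 Doxy and 6 DoxyNaB arrays. Its fitted change was 4.13 in NaB/Ctl and 2.49 in DoxyNaB/Doxy (SE 0.47), against groups in which it was mostly or partly near background, and the second value lost the call with normexp (1.03) and quantile normalization (1.40). LIF, a cytokine of the IL-6 family, fell by 3.42 and 3.77 (SE 0.14), and CFLAR, an inhibitor of death-receptor signaling, fell by 2.77 and 3.08 (SE 0.31) and was well above background on 3 NaB and 3 DoxyNaB arrays.

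DoxyNaB/NaB called 2 of the 79 listed genes, 2.53% beside 0.403% of all genes. They were the cytokine IL11 at 1.24 (SE 0.17, adjusted p = 0.000188) and PLAU, the urokinase, at 1.05 (SE 0.10, adjusted p = 2.43e-06). Neither was called with normexp, quantile normalization or median scaling. The interaction passed for 3 of the 79, 3.8% beside 1.36% of all genes. Besides IKBKB, these were IER3, a stress response gene, at 0.71 (SE 0.13, adjusted p = 0.00272) and IL11 at -1.33 (SE 0.25, adjusted p = 0.00458). In the 6 fits that left out an experiment, IKBKB passed in 3, IL11 in 2 and IER3 in 1.

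Few other chemokines were measured. Of 32 listed, 4 were tested, and CCL27, a chemokine of skin epithelium, rose by 2.16 in NaB/Ctl and 1.53 in DoxyNaB/Doxy (SE 0.24), with 0.68 and 0.99 under normexp. It was well above background on 3 of the 6 Ctl arrays. Of the 9 receptors, integrins and proteases, 5 were tested. CXCR1 was well above background on 1 Ctl, 6 NaB, 3 Doxy and 2 DoxyNaB arrays, so it was tested through NaB alone, where it was highest. Its fitted differences were 3.49 and 1.62 (SE 0.31), between groups that were in part near background. They were 0.71 and 0.80 with normexp, and the second was 0.97 with quantile normalization and 0.92 with median scaling, which ended these calls. CXCR2 had fitted differences of 1.24 and 1.19 (SE 0.23), but its NaB/Ctl value was 0.16 with normexp and -0.10 with quantile normalization. Neither difference was called with normexp, quantile normalization or median scaling. CXCR2 was well above background on 3 Ctl, 5 NaB, 4 Doxy and 6 DoxyNaB arrays, so it was tested through DoxyNaB alone, a group where it was high.

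The summed signal of the 4 leukocyte markers reported reached higher values on butyrate arrays, although the ranges overlapped. It was between 0.125 and 0.415 times the 75th percentile on Ctl arrays and between 0.27 and 0.794 times on NaB arrays, and between 0.125 and 0.384 times on Doxy arrays and between 0.24 and 1.03 times on DoxyNaB arrays. The sum of the 4 endothelial markers ran from 0.0975 to 0.236 on Ctl, from 0.19 to 0.762 on NaB, from 0.114 to 0.574 on Doxy and from 0.215 to 1.14 on DoxyNaB arrays. That of the 4 fibroblast markers ran from 0.329 to 0.49, from 0.178 to 1.04, from 0.231 to 0.499 and from 0.698 to 1.26 in the same order. The sum of the 8 epithelial markers ran from 210 to 300 times the 75th percentile on Ctl, from 275 to 502 on NaB, from 216 to 297 on Doxy and from 254 to 372 on DoxyNaB arrays. The highest values were thus on butyrate arrays for each of the 4 marker lists. Several leukocyte, endothelial and fibroblast probes were near background. CD3E, KDR and LUM were well above it on 11, 9 and 1 arrays, although CD14, CSF1R and COL1A1 were on 23. Negative controls over 100 occurred on butyrate arrays alone. The part of the marker signals in the receptor values was not tested.

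**Figure D5:**
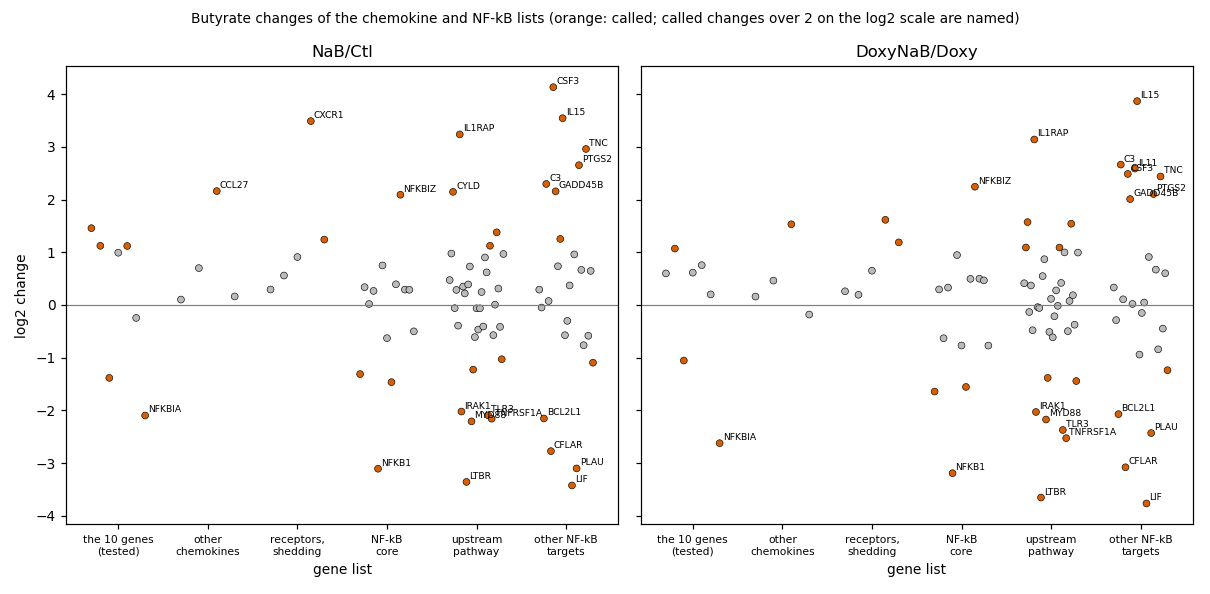
Log2 change (y axis) of the tested genes of the 10 and of the 5 lists (x axis) in NaB/Ctl (left) and DoxyNaB/Doxy (right), 1 point per gene. Orange points were called, and called genes with a change over 2 in size are named. Of the 79 listed genes 15 rose and 15 fell in NaB/Ctl, and NFKB1 is the lowest of the NF-kB core in both panels.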

How the data were processed

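RNA from 24 cultures was hybridised to one-colour Agilent arrays. The deposited files hold spot intensities per the file headers, as background-subtracted processed signals from Agilent Feature Extraction 9.5.3.1, which had not been normalized between arrays. From these deposited intensities the log2 processed signal minus the log2 75th percentile of the array was computed, over spots that are not controls and leaving out outlier flags (359 to 795 spots an array). Saturated spots (0 to 3 an array) were kept. Spots of a probe were averaged, and a gene is represented by its brightest tested probe where it has several.

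Probes well above background on all 6 arrays of a treatment were fitted with limma 3.58.1 in R 4.3.3 on all 24 arrays, with the experiment as a block, and p-values over the 18984 probes had a Benjamini-Hochberg adjustment. A change was called at a fold over 2 and an adjusted p under 0.01, and an interaction at an adjusted p under 0.01. Arrays of the same experiment number deviated together (r of 0.388 to 0.851), except in experiment 3, where 5 of 6 pairs were over 0.1 and the lowest was -0.217. The study's own test is paired and it calls the experiments biological replicates, all of 1 clone, so p-values measure the spread between cultures of that clone.

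The fit and the calls were tested on simulated levels of 18331 probes, with independent noise and a log2 change of 1.5 in 300 of them. Of these, 276 of 300 changed probes were recovered in NaB/Ctl and 86 of 100 in the interaction, with 0 and 2 unchanged probes called. Scaling, background correction and the filter were not simulated, and far fewer probes were changed than were called in the data. The 10 genes, the lists and the tests were chosen with earlier results of these data known. Besides the 10 genes, the text names per comparison up to 3 called genes of each list with the largest change, the NF-kB subunits, and the 5 genes most correlated with IL8 and with NFKBIA. Alternatives were normexp (with an offset of 50 signal units), quantile and median scaling (after a floor of 5), other filters, thresholds, probes and blocks. Others were the methods' t-test, single scans, 2 arrays left out, and each experiment left out. Of the leukocyte markers, 1 is not reported here and is in no sum or count of markers. Sequences were matched with Biopython 1.88. The arrays' number limits the precision.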

Additional observations from a re-analysis of the deposited data

Results flagged for a closer look

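The response of NFKBIA to butyrate differed between cells without and with doxycycline by 0.525 on the log2 scale, by limma's interaction test (adjusted p = 0.00378). That of BIRC3 differed by 0.86 (adjusted p = 0.0022). Both differences were seen in 6 of 6 experiments.

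Of 52 sets of 6 arrays (13 probes in 4 treatments), 2 held an array that stood apart from the others by Dixon's criterion, which chance gives for about 5% of sets. CXCL16 was at -0.887 on the DoxyNaB array of experiment 1, and the nearest other DoxyNaB array was at -1.644, a gap of 0.631 of the range. Without experiment 1 the DoxyNaB/Doxy change of CXCL16 was -1.22. CCL20 was at -5.158 on the Ctl array of experiment 2, and the nearest other Ctl array was at -6.679, a gap of 0.664 of the range. That array was the single Ctl array where CCL20 was well above background.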

How the results depend on the processing

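The counts moved with the scaling, the background correction, the filter and the fold threshold. Of the 7 genes tested, 5 were called in NaB/Ctl, against 2 with normexp, 2 with quantile normalization, 2 with median scaling and 3 when only probes well above background on all 24 arrays were kept. In DoxyNaB/Doxy 3 were called, against 1 with normexp, 1 with the mean over a gene's probes, 5 at a fold of 1.5 and 5 with no fold threshold, and DoxyNaB/NaB then gave 2 in place of 0. The 2 interactions became 0 with normexp, 0 with median scaling, 1 with quantile normalization (ICAM1), 1 with no filter, 0 with the methods' t-test after Benjamini-Hochberg adjustment, 0 in experiments 2 to 4, 0 in experiments 5 and 6, and 1 with the 75th percentile over probes, an alternative chosen after seeing the data. The listed pathway genes called, 30 in NaB/Ctl and 31 in DoxyNaB/Doxy, became 17 and 16 with normexp, 16 and 17 with the filter on all 24 arrays, and 64 and 60 with no fold threshold. The calls over all probes moved as well. In NaB/Ctl they were 6017 of 18984, against 3001 with normexp, 5629 with quantile normalization and 7772 with median scaling. They were 4009 of 15090 with the filter on all 24 arrays and 12952 of 18984 with no fold threshold. The filter and the thresholds change how many genes can be called, and for the others the cause was not tested.

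Leaving out 1 experiment at a time gave 4 to 6 genes in NaB/Ctl, 1 to 3 in DoxyNaB/Doxy, 0 to 1 in the interaction and 0 to 0 in Doxy/Ctl and DoxyNaB/NaB, with 28 to 30 and 31 to 32 listed genes. These fits called between 5846 and 6095 of all 18984 probes in NaB/Ctl. Without the block that pairs the arrays by experiment the counts were 5, 3, 0, 0 and 2, with 29 and 30 listed genes, so the pairing changed no call of the 10 genes in number. NaB/Ctl then called 5530 of all 18984 probes.

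Changes that turned sign were mostly small. With normexp these were CXCL1, CXCL2, CXCL3 and CXCL16 in Doxy/Ctl (-0.111, -0.052, -0.06 and 0.001), CXCL1, CXCL2, CXCL3 and BIRC3 in DoxyNaB/NaB (0.33, 0.10, 0.40 and 0.001), CXCL1, CXCL2 and CXCL3 in the interaction (-0.44, -0.15 and -0.46), and the second CXCL2 probe in NaB/Ctl (-0.09). With quantile normalization they were CXCL3 in NaB/Ctl (-0.16), CXCL3, BIRC3, ICAM1 and the second CXCL1 probe in DoxyNaB/Doxy (-0.097, -0.161, -0.035 and -0.019), CXCL1 in Doxy/Ctl (-0.11), CXCL1 and CXCL3 in DoxyNaB/NaB (0.22 and 0.15) and in the interaction (-0.32 and -0.06), CXCR2 and REL in NaB/Ctl (-0.10 and -0.14), and the second CXCL2 probe in both butyrate comparisons (-0.93 and -0.72). With median scaling they were ICAM1 in DoxyNaB/Doxy (-0.36), CXCL1 in Doxy/Ctl, DoxyNaB/NaB and the interaction (-0.063, 0.076 and -0.138), NFKBIA in Doxy/Ctl (-0.05), REL (-0.46 and -0.06), RELA (-0.461 and -0.092) and the second CXCL2 probe (-0.48 and -0.45) in both butyrate comparisons. Median scaling also moved the median of all tested probes, to -0.58 in NaB/Ctl and -0.456 in DoxyNaB/Doxy. The mean over probes gave 0.003 for CXCL16 in Doxy/Ctl. Experiments 2 to 4 gave 0.039 for ICAM1 in NaB/Ctl, 0.053 for CXCL16 in Doxy/Ctl, and 0.12 and -0.09 for CXCL1 in DoxyNaB/NaB and the interaction. Experiments 5 and 6 gave -0.179, -0.064 and 0.032 for CXCL2, NFKBIA and ICAM1 in Doxy/Ctl, and -0.14 for the second CXCL2 probe in DoxyNaB/Doxy. Without 1 experiment at a time, ranges that span 0 were CXCL1 and ICAM1 in Doxy/Ctl (-0.061 to 0.07 and -0.046 to 0.02), CXCL1 and CXCL2 in DoxyNaB/NaB (-0.212 to 0.088 and -0.553 to 0.002), CXCL1 in the interaction (-0.082 to 0.282) and the second CXCL2 probe in DoxyNaB/Doxy (-0.029 to 0.177). Over the changes of single genes and probes under all alternatives, 57 turned sign, 139 lost their call, 42 gained one and 1732 kept direction and side of the threshold. Signal over background limits IL8, CCL20 and TNFAIP3, which could not be tested.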
